A study of Mus musculus with 4 samples.

Results

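The ADAM genes of the mouse were followed through pachytene spermatocytes, germ cells of the testis at the stage of meiosis when paired chromosomes recombine. Members were all genes whose symbol is Adam followed by a number and at most 1 letter. This gave 33 genes among the 21038 gene identifiers that the files list. A value in at least 1 library was given for 19445 genes, and for 32 of the 33 ADAM genes. Adam7, a gene of the epididymis, was listed without a value in all 4 libraries.

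ADAM proteins are anchored in the membrane and carry a disintegrin domain, which can bind integrins, next to a metalloprotease domain. In somatic tissues members such as ADAM10 and ADAM17 cut growth factors, cytokines and receptors off the cell surface, a step called shedding. In the testis a large branch of the family is made by germ cells, and several of these proteins sit on sperm as adhesion partners rather than enzymes. ADAM3 is required in mice for sperm to enter the oviduct and to bind the zona pellucida, and its arrival on the sperm surface needs the fertilin subunits ADAM1A and ADAM2 and chaperones of the endoplasmic reticulum.

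The spermatocytes came from adult mice on a C57BL/6 background. Cells with the genotype Tcfl5+/+ (wild type, 2 libraries) were set against cells with the genotype Tcfl5+/- (heterozygote, 2 libraries). The protein TCFL5 belongs to the basic helix-loop-helix factors and is found in male germ cells. The sources used here do not say which stretch of the gene is missing from the altered allele. The labels name no animal for any library. All p-values therefore rest on these libraries alone, and the spread between them may be technical variation. Levels are in FPKM, which corrects for transcript length and for the reads mapped in a library and lets genes of unequal length be set side by side. The depth of the libraries is unknown. Where 2 values are given for a genotype, replicate 1 comes first.

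The label of the family as proteases fitted part of its members. A catalytic ADAM binds zinc through 3 histidines in a fixed pattern of residues. The coding sequences of GENCODE M21, on GRCm38, were searched in frame for the 33 bases that encode this pattern. The codons were found in 20 of the 33 genes and not in 13. The 20 included 9 of the 10 genes of the group described here as testis protease-type, all 9 somatic sheddases, and Adam1a and Adam1b. They were not found in Adam5, Adam3, Adam32 and Adam2, the 4 most abundant members, nor in Adam18, Adam4, Adam6a, Adam6b, Adam7 and Adam29, nor in Adam11, Adam22 and Adam23, members known from the nervous system. The stretches below are shown as examples from the 20 genes where the search found the pattern. The other 13 have no such stretch to show. Capitals mark the codons of the 3 histidines, the catalytic glutamate and the conserved glycine.
Adam1b: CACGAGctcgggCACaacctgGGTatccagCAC
Adam1a: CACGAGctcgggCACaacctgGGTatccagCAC
Adam30: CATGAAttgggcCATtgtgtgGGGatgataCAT
Adam24: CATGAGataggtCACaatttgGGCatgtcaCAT
Adam20: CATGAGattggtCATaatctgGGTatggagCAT
Adam39: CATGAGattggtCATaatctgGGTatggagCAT
Adam25: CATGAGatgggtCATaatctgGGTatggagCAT
Adam17: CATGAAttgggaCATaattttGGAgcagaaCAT
Adam9: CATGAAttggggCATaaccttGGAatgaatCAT
Adam10: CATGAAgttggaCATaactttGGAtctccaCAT

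On GRCm38 the stretch of Adam1b lies at chr5:121501937-121501969 and that of Adam1a at chr5:121520089-121520121, both on the minus strand and in single-exon transcripts. Those of Adam24, Adam25, Adam20 and Adam39 lie in the last of 2 exons, at chr8:40680518-40680550, chr8:40754761-40754793, chr8:40795917-40795949 and chr8:40825636-40825668 on the plus strand. That of Adam30 lies at chr3:98161861-98161893 on the plus strand, in a single exon. That of Adam17 lies in exon 12 of 20 at chr12:21336732-21336764, and that of Adam9 in exon 11 of 22 at chr8:24990326-24990358, both on the minus strand. In Adam10, on chromosome 9, the stretch is split between exons 9 and 10 of 16. The stretch is identical in Adam1a and Adam1b, and in Adam20 and Adam39.

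**Figure D1:**
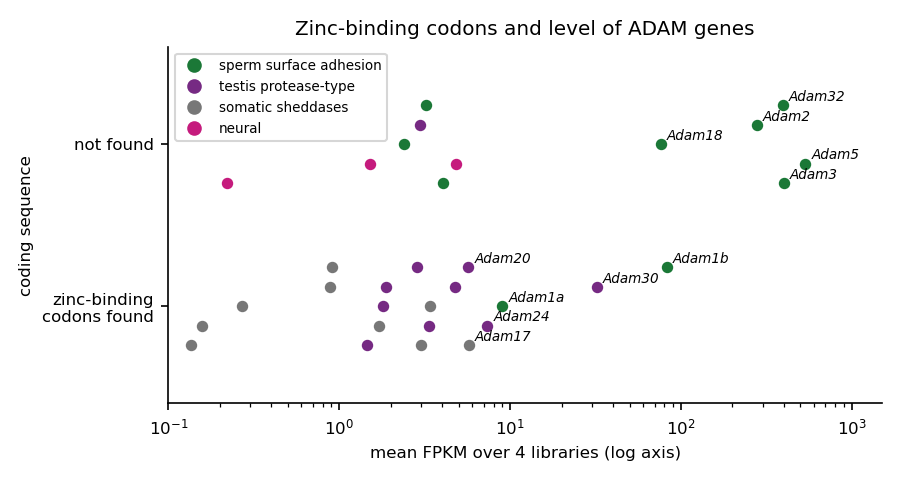
Mean FPKM over the 4 libraries (log axis) of the 32 ADAM genes with a value, in rows by whether the coding sequence holds the zinc-binding codons; colours mark the groups of members. The 4 genes with the highest means, 277 to 532 FPKM, are in the row without the codons, and the highest in the row with them is Adam1b at 82.7 FPKM.

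The levels of the family spanned more than 3 orders of magnitude in these libraries, and a few members held most of it. Adam5, Adam3, Adam32 and Adam2 had means of 532, 399.9, 394 and 277 FPKM over the 4 libraries, and the first 3 were above the 99th percentile of all genes with a value. These 4 held 84.3% to 87.6% of the summed FPKM of the family, which was 0.362% to 0.441% of the summed FPKM of a library. Adam1b and Adam18 followed at 82.7 and 76.0 FPKM, and Adam30, a protease-type member of the testis, at 32.1 FPKM. The other 26 members were under 10 FPKM, and 22 of the 33 were under 5 FPKM.

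In the order of levels, Adam5, Adam3 and Adam32 overlapped in their ranges over the libraries. Adam2 lay below Adam32 and above Adam1b in every library. Adam1b and Adam18 overlapped, and both lay above Adam30. From Adam1a downwards, each gene overlapped its next neighbour down to Adam19. A last step separated Adam19, at 0.58 to 1.24 FPKM, from Adam28, Adam23, Adam12 and Adam33, at 0.08 to 0.40 FPKM.

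**Figure D2:**
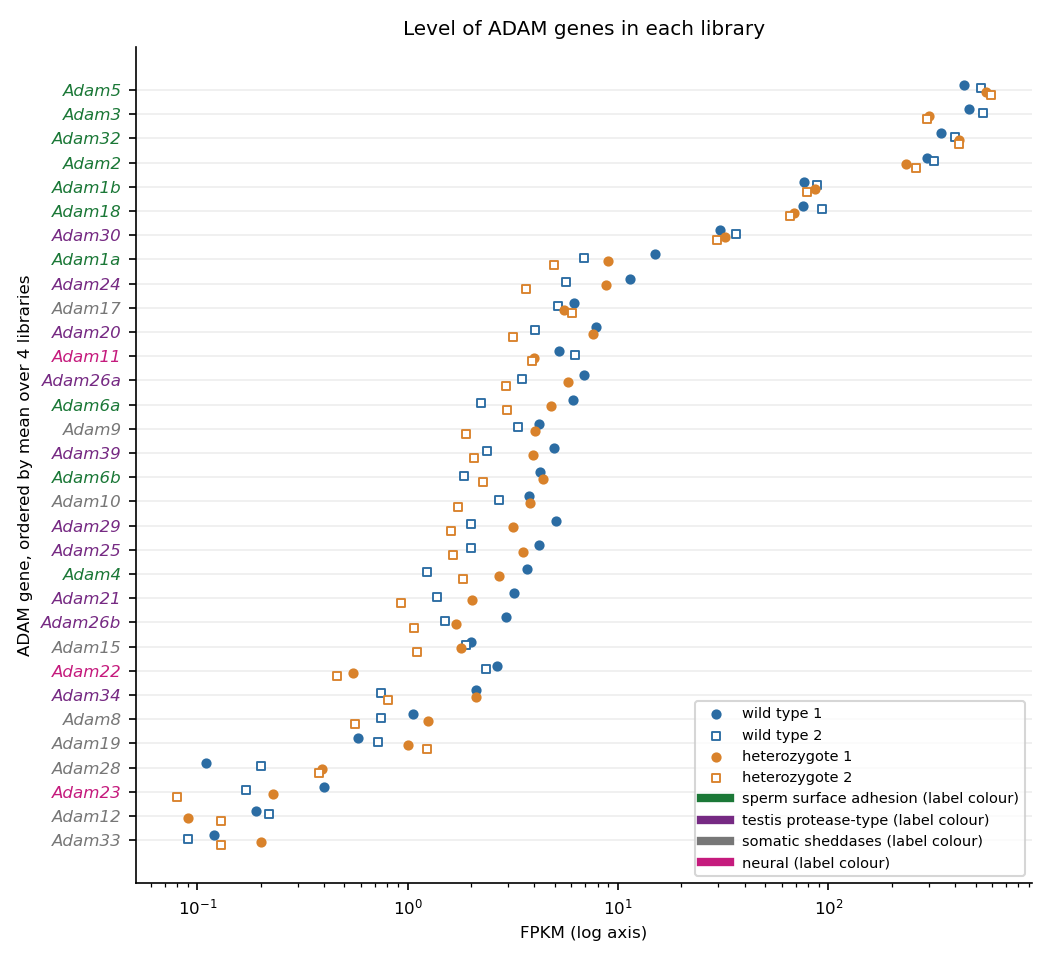
FPKM (log axis) of the 32 ADAM genes with a value in each of the 4 libraries, ordered by mean; filled circles are replicate 1 and open squares replicate 2 of each genotype, and the colour of a name gives its group. Adam5, Adam3, Adam32 and Adam2 stand at the top between 233 and 594 FPKM, and Adam3 and Adam22 are lower in both heterozygote libraries.

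How far a value belongs to its own gene differs between members. Of the 50-base words in a member's transcript, the length of the reads, the share also present in a transcript of another gene was 0% for Adam5, Adam32, Adam2, Adam18, Adam30, Adam24 and Adam22, and 2.04% for Adam3. It was 32.4% for Adam1b, all of it shared with Adam1a. It was 51.9% for Adam1a, of which 30.9% was shared with Adam1b and the rest with the gene model Gm42878. It lay between 34.2% and 36.7% for Adam20, Adam39, Adam25, Adam26a and Adam26b, near 29.5% for Adam6a and Adam6b, and at 27.3% for Adam34 and 17.4% for Adam4. The values of these 11 near-copies are therefore uncertain. Adam15, Adam19 and Adam17 share 13.9%, 9.39% and 5.93% with transcripts of the opposite strand or of another gene, and no strand-keeping step is named in the protocol.

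Tcfl5, on chromosome 2 of GRCm38 from 180621956 to 180642702 on the minus strand, was at 248.7 and 237.7 FPKM in the wild type and at 137 and 189 FPKM in the heterozygote. Both heterozygote libraries lay below both wild-type libraries. The log2 difference was -0.59 with a standard error of 0.16 (limma-trend, Benjamini-Hochberg adjusted p = 0.242 over 13333 genes). It was -0.37 without heterozygote replicate 1 and -0.82 without heterozygote replicate 2. Markers of pachytene spermatocytes were all above 0 in the 4 libraries, 12 of 12, and summed to 5725 and 5870 FPKM in the wild type against 5528 and 5810 FPKM in the heterozygote. Macrophage and leukocyte markers summed to 1.59 to 2.18 FPKM in each library, with C1qa at 0 in at least 1. Other testis cells were present too. Spermatid markers summed to 1134 to 3224 FPKM, Sertoli cell markers to 290 to 816 FPKM and Leydig cell markers to 319 to 599 FPKM.

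For the genotype comparison, 28 ADAM genes averaging 0.5 FPKM or more were tested and 5 were not. With genotype as the only term, no ADAM gene passed limma-trend at an adjusted p under 0.05, and no gene of the 13333 did, a share of 0%. The smallest adjusted p among the 28 was 0.129. At an unadjusted p under 0.05, 4 ADAM genes were lower in the heterozygote (14.3%, where 5.57% of all genes were) and 0 were higher (7.63% of all genes). These 4 were Adam22, Adam3, Adam2 and Adam18, and the number was 2 without heterozygote replicate 1. A negative log2 difference was found for 20 of the 28 (71.4%, against 52.3% of all genes), and the median was -0.21, against -0.02 over all genes. That balance rested on 2 libraries, since 12 of the 28 were negative without wild-type replicate 1 and 12 without heterozygote replicate 2, where the median was 0.09. It was 24 of 28 after scaling to an equal sum and 23 of 28 after scaling to the upper quartile. Among the cell type markers, 8 of 20 spermatid markers had both heterozygote libraries above the wild type (23.6% of all genes) and 0 both below (19% of all genes). Of 12 pachytene markers, 0 had both above and 5 both below. No marker passed after adjustment by limma-trend, where 0% of all genes did. Their part in the ADAM differences was not tested. With 2 libraries per genotype an exact permutation test of a single value cannot go below p = 0.333. Adding the replicate number as a term to limma-trend gave 1213 genes called, 3 of them ADAM genes. No label says what libraries of 1 number share.

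**Figure D3:**
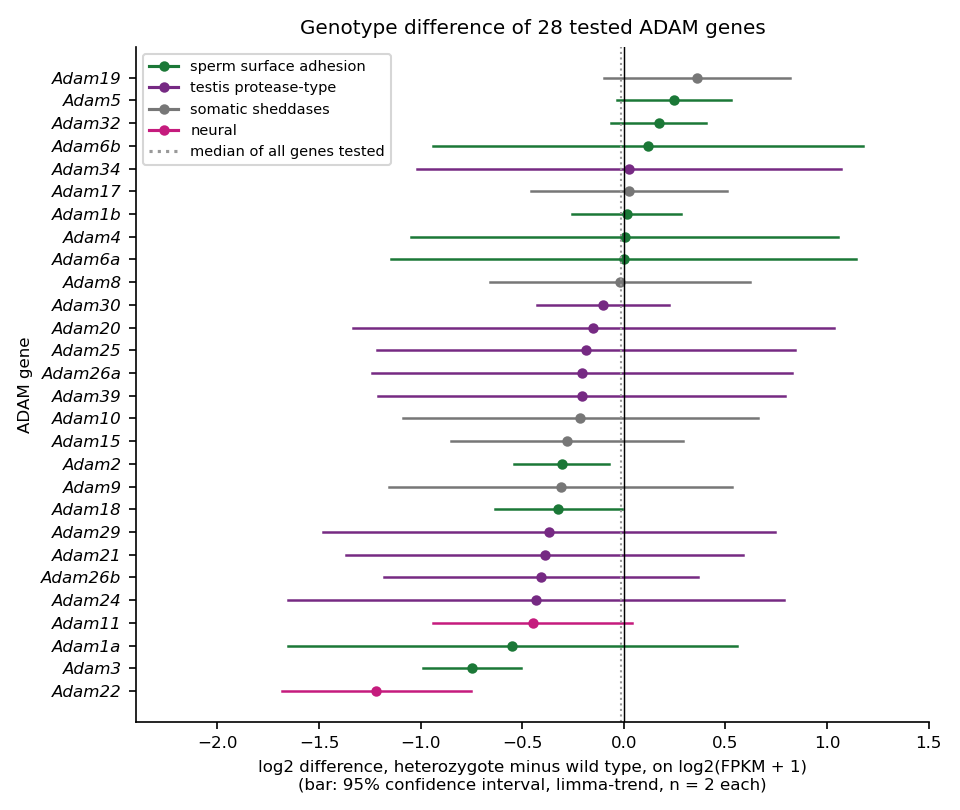
Log2 difference, heterozygote minus wild type, on the log2(FPKM + 1) scale for the 28 tested ADAM genes; bars are 95% confidence intervals from limma-trend (n = 2 each) and the dotted line is the median of all genes tested. Adam22 at -1.22 and Adam3 at -0.75 lie farthest below 0, while the intervals of most testis protease-type genes reach far to both sides.

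Among the adhesion members of the sperm surface, Adam3 stood lower in the heterozygote. Adam3, on chromosome 8 from 24677232 to 24726039 on the minus strand, was at 464 and 540.05 FPKM in the wild type and at 301 and 295 FPKM in the heterozygote. The groups did not overlap, and the heterozygote libraries lay close together. Mean levels of 502 ± 53.9 and 298 ± 4.15 FPKM (SD, n = 2 each) differed 1.69-fold. The log2 difference was -0.75 with a standard error of 0.09 (limma-trend, unadjusted p = 0.000534, adjusted p = 0.129). After quantile normalization the limma-trend adjusted p was 0.00855, and it was above 0.05 under each other scaling tried.

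Adam3 lies in a run of 5 ADAM genes on the minus strand of chromosome 8, in the order Adam18, Adam3, Adam5, Adam32 and Adam9, with 692 to 11773 bases between neighbours as the files give them. On this strand Adam5 starts at 24824369 and ends 1053 bases before the start of Adam3. Adam5 encodes a protein found on sperm together with ADAM2 and ADAM3. It was at 443 and 532 FPKM in the wild type and at 558 and 594 FPKM in the heterozygote. Both heterozygote libraries were thus above the wild type, the opposite side from Adam3, and the means were 487 ± 62.9 and 576 ± 25.6 FPKM (SD, n = 2 each; log2 difference 0.25, limma-trend adjusted p = 0.440). The difference was 0.11 without wild-type replicate 1 and 0.38 without wild-type replicate 2.

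Adam32, another testis gene of the run, was at 344 and 398 FPKM in the wild type and at 419 and 415 FPKM in the heterozygote. The heterozygote was again above, with a log2 difference of 0.17 (limma-trend adjusted p = 0.544), 0.068 without wild-type replicate 1 and 0.28 without wild-type replicate 2. Adam18, at the other end, was at 75.9 and 93.6 FPKM in the wild type and at 68.7 and 65.7 FPKM in the heterozygote. Here the heterozygote was below, as for Adam3, with a log2 difference of -0.32 (limma-trend unadjusted p = 0.0449, adjusted p = 0.362), and -0.17 without wild-type replicate 2. Adam9, a ubiquitous sheddase at the end of the run, was at 4.21 and 3.33 FPKM in the wild type and at 4.05 and 1.90 FPKM in the heterozygote, and its groups overlapped.

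The ratio of Adam3 to Adam5 within a library is not altered by a single scaling factor per library. It was 1.05 and 1.02 in the wild type against 0.539 and 0.496 in the heterozygote. The mean ratios were 1.03 ± 0.0227 and 0.518 ± 0.0302 (SD, n = 2 each), 1.99-fold apart, and 1.91-fold to 2.08-fold apart without 1 library. The ratio of Adam3 to Adam32 was 1.35 and 1.36 in the wild type against 0.718 and 0.710 in the heterozygote, 1.89-fold apart. Against Adam18, the neighbour that was also lower in the heterozygote, the shift was smaller. The ratio of Adam3 to Adam18 was 6.11 and 5.77 in the wild type against 4.38 and 4.49 in the heterozygote, 1.34-fold apart. The ratio of Adam5 to Adam32 was 1.29 and 1.34 against 1.33 and 1.43, and its groups overlapped. These ratios were chosen after the values were seen. For each ratio with Adam3 the exact permutation p was 0.333, the smallest the design allows, two-sided.

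**Figure D4:**
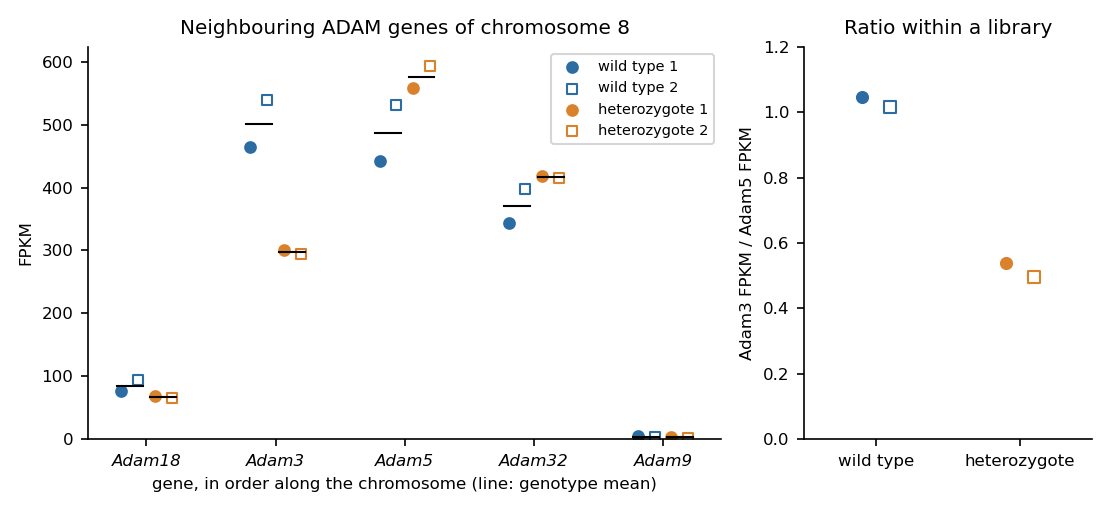
Left, FPKM in each library of the 5 neighbouring ADAM genes of chromosome 8 in their order along it, with the mean of each genotype as a line; right, the ratio of Adam3 to Adam5 FPKM in each library. Adam3 is lower in both heterozygote libraries (295 and 301 FPKM) and Adam5 higher (558 and 594 FPKM), and the ratio is near 1.03 in the wild type against 0.518 in the heterozygote.

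Adam2 encodes fertilin beta, the partner of both forms of fertilin alpha, and lies on chromosome 14 (66027322 to 66077860, minus strand), with no other member within 1000000 bases. It was at 294 and 318 FPKM in the wild type and at 233 and 262 FPKM in the heterozygote. The groups did not overlap, with means of 306 ± 17.3 and 247 ± 20.7 FPKM (SD, n = 2 each) and a log2 difference of -0.31 (limma-trend unadjusted p = 0.0201, adjusted p = 0.266). Within a library Adam3 was 1.58 and 1.70 times Adam2 in the wild type against 1.29 and 1.13 times Adam2 in the heterozygote. The mean ratios were 1.36-fold apart.

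Fertilin alpha has 2 genes in the mouse, 15623 bases apart on chromosome 5. Adam1b, whose product pairs with ADAM2 on the sperm surface, was at 76.5 and 88.3 FPKM in the wild type and at 86.6 and 79.5 FPKM in the heterozygote. The groups overlapped, and the log2 difference was 0.01 with a 95% confidence interval from -0.26 to 0.28. Adam1a, whose product acts with ADAM2 inside the endoplasmic reticulum, was at 15.0 and 6.92 FPKM in the wild type and at 8.95 and 4.96 FPKM in the heterozygote. Its groups overlapped too, and its 95% confidence interval, from -1.65 to 0.56, was several times wider.

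Adam1b exceeded Adam1a in every library, by 5.10-fold and 12.8-fold in the wild type against 9.68-fold and 16.03-fold in the heterozygote, and the pair shares part of its sequence as given above. Upstream of the start of the transcript the sequences differ, and they are shown for this difference in level. The windows are 250 bases before the start in the RefSeq table of GRCm38.p6, at chr5:121503436-121503685 for Adam1b and chr5:121521696-121521945 for Adam1a, on the minus strand. The coordinates given with the FPKM values end Adam1b at 121502980, short of its window, and Adam1a at 121521695, next to its window. The start of Adam1b thus differs between these sources. Capitals mark matches to AACNG, the core bound by MYB factors, on either strand.
Adam1b: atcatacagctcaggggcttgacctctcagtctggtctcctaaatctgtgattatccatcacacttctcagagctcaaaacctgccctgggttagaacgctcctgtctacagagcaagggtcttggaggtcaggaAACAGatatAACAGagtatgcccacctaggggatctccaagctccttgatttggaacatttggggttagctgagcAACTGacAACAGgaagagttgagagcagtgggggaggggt
Adam1a: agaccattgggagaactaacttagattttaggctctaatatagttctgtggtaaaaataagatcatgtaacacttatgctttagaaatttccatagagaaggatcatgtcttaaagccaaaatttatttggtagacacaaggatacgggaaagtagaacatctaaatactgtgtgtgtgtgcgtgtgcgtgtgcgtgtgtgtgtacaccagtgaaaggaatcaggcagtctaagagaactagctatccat

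The window of Adam1b held 4 matches to AACNG, at positions -115, -106, -40 and -33 from the start, and that of Adam1a held none before the start and 1 at position 40 after it. Over windows from 250 bases before to 50 after the start, 80.3% of 32851 windows in the RefSeq table held AACNG. Windows were given for 17 of the 33 ADAM genes, 19 windows in all, and 15 of the 19 held it, from 15 genes. CACGTG is the palindromic E-box that many basic helix-loop-helix factors bind. It was in 3 of the 19 windows, from Adam10, Adam19 and Adam6a (7.15% of all windows). TGACGTCA, the element bound by CREM and CREB factors, was in 0 of the 19 (1.79% of all windows). AACNG and CACGTG do not overlap each other in these 2 windows, since neither holds CACGTG. A match is a string of letters and not a shown site. No window was given for Adam3, Adam5, Adam2, Adam18 or Adam32.

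The remaining adhesion members were low. Adam4, Adam6a and Adam6b encode proteins found on sperm in complexes with ADAM2 or ADAM3, and their means over the 4 libraries were 2.38, 4.04 and 3.198 FPKM. Adam6a was at 6.13 and 2.24 FPKM in the wild type and at 4.81 and 2.97 FPKM in the heterozygote, so that the libraries of 1 genotype differed more than the genotypes. The log2 differences of these 3 genes lay between -0.0011 and 0.12, and their groups overlapped.

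The testis protease-type members (Adam20, Adam21, Adam24, Adam25, Adam26a, Adam26b, Adam29, Adam30, Adam34 and Adam39) had no gene whose genotypes stood apart. Adam29 was counted in this group although the zinc-binding codons were not found in it. All 10 were tested, and 9 had a negative log2 difference (52.3% of all genes). Adam20, Adam25, Adam39, Adam26a, Adam26b and Adam34 share part of their sequence with other members, as given above. Their signs are therefore not separate observations. Adam24 and Adam20 changed sign without wild-type replicate 1 and without heterozygote replicate 2, and Adam30 without wild-type replicate 2. Signs without 1 library were not drawn up for the other 7 genes, so the count of 9 is not shown to be stable. Over all 28 tested members, 12 were negative without wild-type replicate 1 and 12 without heterozygote replicate 2. Both heterozygote libraries were above the wild type in 0 of the 10 (23.6% of all genes) and below in 0 (19% of all genes). Adam30 was the most abundant, at 30.4 and 36.3 FPKM in the wild type and at 32.2 and 29.6 FPKM in the heterozygote. Adam24, or testase 1, was at 11.4 and 5.63 FPKM in the wild type and at 8.72 and 3.67 FPKM in the heterozygote. Adam20 was at 7.86 and 4.01 FPKM in the wild type and at 7.63 and 3.18 FPKM in the heterozygote. The means of the other 7 lay between 1.45 and 4.77 FPKM.

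These genes differed between the libraries within a genotype instead. In 9 of the 10, Adam30 being the exception, both replicate 1 libraries were above both replicate 2 libraries. Over the 10 genes the median difference of replicate 1 minus replicate 2 was 0.82 log2 units in the wild type against 0.73 in the heterozygote, against 0.10 and 0.06 over all genes. The same split held for Adam1a, Adam4, Adam6a and Adam6b among the adhesion members and for Adam8, Adam9 and Adam10 among the sheddases, 16 of the 28 tested members in all (57.1%, against 32.7% of all genes). The reverse split was found for 0 members (8.62% of all genes). For Adam3, Adam5, Adam32, Adam2, Adam18 and Adam1b the difference between the libraries was -0.30 to -0.11 log2 units in the wild type and -0.17 to 0.12 in the heterozygote.

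Markers of spermatids, Sertoli cells and Leydig cells followed this split more often than all genes did (32.7%, with 8.62% in reverse). Those of spermatogonia and early meiosis were near that share, with 3 of 9 tested and all 12 above 0. Those of pachytene spermatocytes (2 of 12, with 2 in reverse) and of peritubular and endothelial cells did not follow it. Of 20 spermatid markers, all above 0 in every library, 12 had both replicate 1 libraries above both replicate 2 libraries, and the 20 together summed to 2313 and 1134 FPKM in the wild type against 3224 and 2629 FPKM in the heterozygote. Of 16 Sertoli cell markers, all above 0, 15 of the 15 tested showed it, with sums of 816 and 529 FPKM in the wild type against 816 and 290 FPKM in the heterozygote. Of 8 Leydig cell markers, all above 0, 6 showed it, with sums of 555 and 348 against 599 and 319 FPKM. Of 8 peritubular myoid and endothelial markers, all above 0, 6 were tested, 1 showed it and 2 showed the reverse, with sums of 10.1 and 15.6 FPKM in the wild type against 15.1 and 16.6 FPKM in the heterozygote. Their part in the ADAM values was not tested, and in such bulk samples fewer cells of a type and less RNA per cell cannot be told apart.

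**Figure D5:**
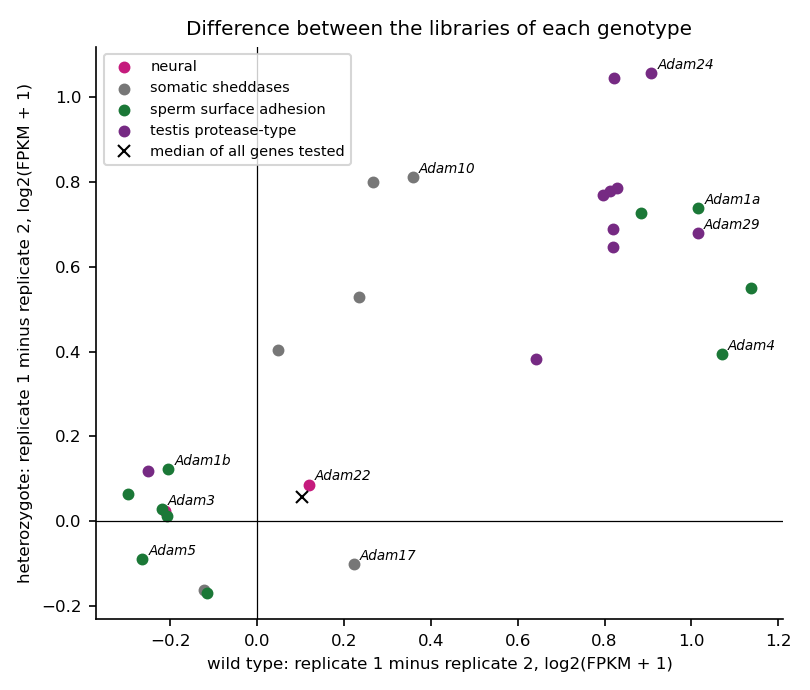
Difference between replicate 1 and replicate 2 on the log2(FPKM + 1) scale in the wild type (x axis) and in the heterozygote (y axis) for the 28 tested ADAM genes, coloured by group, with the median of all genes tested as a cross. The testis protease-type genes other than Adam30 lie at upper right, while Adam3, Adam5 and Adam1b lie near the origin.

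The somatic sheddases were low. Of the 6 tested, 0 were higher and 0 lower at an unadjusted p under 0.05 (7.63% and 5.57% of all genes). Adam17, which releases tumour necrosis factor and ligands of the epidermal growth factor receptor, was the highest at 6.20 and 5.17 FPKM in the wild type against 5.54 and 6.02 FPKM in the heterozygote. Its groups overlapped, and the 95% confidence interval of its log2 difference ran from -0.46 to 0.51. Adam10, which cuts Notch receptors, was at 3.77 and 2.72 FPKM in the wild type and at 3.81 and 1.74 FPKM in the heterozygote, with heterozygote replicate 2 the lowest, as for Adam9 above. That library also had the lowest sum of Sertoli cell markers given above, and their part in these values was not tested.

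Adam15 and Adam8 had means of 1.70 and 0.905 FPKM. Adam19, a sheddase of neuregulins, was at 0.58 and 0.72 FPKM in the wild type and at 1.00 and 1.24 FPKM in the heterozygote, above in both heterozygote libraries (log2 difference 0.36, limma-trend adjusted p = 0.504). Adam28 was at 0.11 and 0.20 FPKM in the wild type against 0.39 and 0.38 FPKM in the heterozygote, too low to be tested, as were Adam12 and Adam33 at 0.09 to 0.22 FPKM. In all, 3 of the 28 tested members had both heterozygote libraries above the wild type (23.6% of all genes) and 6 had both below (19% of all genes). The 3 were Adam5, Adam32 and Adam19, and the 6 were Adam3, Adam2, Adam18, Adam11, Adam15 and Adam22.

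The neural members encode proteins without an active protease, and Adam22 had the widest genotype difference of the family. Adam22, the receptor of secreted LGI proteins at synapses, lies on chromosome 5 from 8072347 to 8368270 on the minus strand. It was at 2.65 and 2.36 FPKM in the wild type and at 0.55 and 0.46 FPKM in the heterozygote. The groups did not overlap, and the libraries of each genotype were close. Mean levels of 2.51 ± 0.205 and 0.505 ± 0.0636 FPKM (SD, n = 2 each) differed 4.96-fold. On log2(FPKM + 1), a scale that understates the change of a low gene, the difference was -1.22 with a standard error of 0.18 (limma-trend unadjusted p = 0.00113, adjusted p = 0.141). After scaling to median ratios the limma-trend adjusted p was 0.0495, and it was above 0.05 under each other scaling tried.

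The upstream window of Adam22, 250 bases at chr5:8368161-8368410 on the minus strand of GRCm38.p6, is shown because this member had the largest difference. It lies before the start in the RefSeq table. The gene coordinates given above reach 8368270, inside this window, so these sources place the start differently.
Adam22: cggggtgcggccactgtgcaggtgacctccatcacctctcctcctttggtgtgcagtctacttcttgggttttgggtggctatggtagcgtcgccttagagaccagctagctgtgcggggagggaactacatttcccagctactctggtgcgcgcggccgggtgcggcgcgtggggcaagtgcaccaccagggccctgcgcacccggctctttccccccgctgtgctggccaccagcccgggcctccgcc
It held 0 matches to CACGTG, TGACGTCA and AACNG, so it has no capitals. Adam11, another neural member, was at 5.26 and 6.25 FPKM in the wild type and at 3.98 and 3.90 FPKM in the heterozygote. Both heterozygote libraries were below the wild type (log2 difference -0.45, limma-trend adjusted p = 0.424). Adam23 was at 0.08 to 0.40 FPKM and was not tested.

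Genes that ADAM proteins depend on were read from the same fit. Of 14 genes for the maturation of ADAM3 and the migration of sperm, 13 had a value and 12 were tested. None passed after adjustment, 1 was higher and 0 were lower at an unadjusted p under 0.05, where 7.63% and 5.57% of all genes were. The median log2 difference was -0.03, and it changed sign to 0.12 when wild-type replicate 1 was left out and to 0.066 when heterozygote replicate 1 was. The chaperone gene Clgn (calmegin), which fertilin assembly needs, was at 379.8 and 405 FPKM in the wild type and at 361 and 391 FPKM in the heterozygote, with overlapping groups. The testis chaperone genes Calr3 and Pdilt were at 4.17 to 10.4 FPKM and 7.20 to 22.1 FPKM and also overlapped. Tpst2, a tyrosine sulfotransferase that mouse sperm need, was at 4.35 and 3.2 FPKM in the wild type against 4.62 and 5.88 FPKM in the heterozygote. The gene with p under 0.05 was Rnase10, a secreted protein best known from the epididymis, at 4.73 and 7.46 against 11.2 and 11.2 FPKM (limma-trend adjusted p = 0.258). Tex101 and Prss55 had adjusted p of 0.586 and 0.649 by limma-trend.

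Of 19 regulators of shedding, 13 were tested, 0 passed after adjustment, and 1 was higher and 0 lower at an unadjusted p under 0.05 (7.63% and 5.57% of all genes). The median log2 difference was -0.05. It came to -0.25 when wild-type replicate 2 was left out, to -0.195 when heterozygote replicate 1 was and to 0.13 when heterozygote replicate 2 was, while leaving out wild-type replicate 1 gave -0.015. The gene at p under 0.05 was Tspan33, a tetraspanin that accompanies ADAM10, at 12.2 and 14.9 FPKM in the wild type against 23.5 and 22.6 FPKM in the heterozygote. Its groups did not overlap (log2 difference 0.73, limma-trend adjusted p = 0.173). Pcsk4, the proprotein convertase of germ cells, was the most abundant processing enzyme of the list at 62.7 and 66.2 against 72.6 and 75.2 FPKM (limma-trend adjusted p = 0.403). Furin, its ubiquitous relative, was at 0.70 to 2.01 FPKM. Pcsk6 and Tspan5 had adjusted p of 0.419 and 0.662 by limma-trend.

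Of 22 substrates of shedding, 10 were tested, 0 passed after adjustment, and 0 were higher and 1 lower at an unadjusted p under 0.05 (7.63% and 5.57% of all genes). Their median log2 difference was -0.19, and between -0.53 without heterozygote replicate 1 and -0.05 without heterozygote replicate 2. The lower gene was Tgfa, a ligand of the epidermal growth factor receptor that ADAM17 releases, at 5.35 and 8.23 FPKM in the wild type against 1.5 and 2.12 FPKM in the heterozygote. Its groups did not overlap (log2 difference -1.45, limma-trend adjusted p = 0.170). Cdh2, or N-cadherin, a substrate of ADAM10, was at 29.5 and 39.7 against 42.6 and 44.1 FPKM (limma-trend adjusted p = 0.490), and Jag1 and Kitl had adjusted p of 0.549 and 0.602 by limma-trend.

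Of 10 integrin genes, 4 were tested (Itga4, Itga6, Itgb1 and Itgb5) and 0 passed after adjustment. At an unadjusted p under 0.05, 0 were higher and 0 lower (7.63% and 5.57% of all genes). The median log2 difference was -0.29, -0.78 without heterozygote replicate 1 and 0.11 without heterozygote replicate 2. Itgb1, the common beta chain, was at 6.74 and 4.51 FPKM in the wild type and at 6.41 and 3.07 FPKM in the heterozygote, with replicate 1 the higher in each genotype.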

How the data were processed

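The authors deposited 1 table of FPKM per gene for each of 4 polyadenylated RNA libraries, per the file headers. The submitters' processing notes name RSEM 1.2.12, Bowtie2 2.2.5 and HISAT2 2.0.4 beside the build GRCm38, without saying what each did. No counts were at hand, so depth is unknown; the summed FPKM were 473346 and 468130 for the wild type, 492203 and 483954 for the heterozygote. Files were joined by Entrez identifier, and a gene absent from a library was set to 0. Since the files hold FPKM, the planned test was limma-trend on log2(FPKM + 1), run with limma 3.58.1 and R 4.3.3 over the 13333 genes averaging 0.5 FPKM or more, two-sided, with no term beside genotype, Benjamini-Hochberg adjusted over all genes at 0.05. It was tested on simulated data with noise drawn separately for each library. Deviations of same-numbered libraries in the real data correlated at 0.529, a structure that the simulated data did not hold. Members are named in full; values per library go first to those with a mean of at least 5 FPKM or with groups apart by at least 1.5-fold on FPKM + 1, and to the 3 highest sheddases, while other members' library values were added after they were seen. From other lists the 4 smallest p and Clgn, Calr3, Pdilt and Tpst2 were named; Furin, Itgb1 and the ratios were chosen after seeing the values. The members and lists were chosen with earlier results of these data known. A protein table was not at hand, so zinc-binding codons were read from GENCODE M21 coding sequences, in the longest coding transcript of each gene.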

Additional observations from a re-analysis of the deposited data

How the results depend on the processing

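Of 386 alternative values for 33 results, 343 kept their direction and side of the threshold or stayed within the margin set for them. Scaling to median ratios gave 65 genes called and 1 ADAM gene (Adam22), with 2 ADAM genes at an unadjusted p under 0.05. Quantile normalization gave 119 genes and 1 ADAM gene (Adam3). The log2 difference changed sign for Adam1b at -0.038 and Adam17 at -0.020 after scaling to an equal sum, at -0.019 and -0.0038 after scaling to the upper quartile, and for Adam1b at -0.025 after quantile normalization. Without 1 library, the ADAM genes with a negative difference numbered 12 to 24, their median was -0.47 to 0.093, those at an unadjusted p under 0.05 numbered 2 to 4, and the medians of substrates and integrins were -0.53 to -0.047 and -0.78 to 0.11. Signs also changed without 1 library, where the lone sample is assumed to vary like the other genotype: the ranges were -0.089 to 0.12 for Adam1b, -0.96 to 0.098 for Adam24, -0.67 to 0.37 for Adam20, -0.23 to 0.024 for Adam30, -0.088 to 0.14 for Adam17, -0.71 to 0.088 for Adam9 and -0.62 to 0.19 for Adam10. These ranges were drawn up only for some members, and signs of others may change too. The cause was not tested. The genotypes share only replicate numbers, and no label says that a number marks shared animals or days. Deviations of same-numbered libraries correlated at 0.529 over 13333 genes. With a replicate block 1213 genes were called, among them 3 ADAM genes (Adam3, Adam22 and Adam2), 1 maturation gene, 1 regulator and 1 substrate, 10 of 28 ADAM genes and 3090 of all 13333 had an unadjusted p under 0.05, and Tcfl5 was at -0.59 with a limma-trend adjusted p of 0.00339. Depth is unknown, so counting error could not be set beside the low values.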
